A study of Mus musculus with 6 samples.

Results

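The 39 protein-coding Hox genes of the mouse were taken from a count table of 55487 rows by 1 rule: a row annotated as protein coding whose symbol is Hox, a cluster letter from a to d and a number. They lie in 4 clusters on mm10. HoxA holds 11 genes on the minus strand of chromosome 6. HoxB holds 10 genes on chromosome 11, from 96194316 to 96368256, HoxC holds 9 genes on chromosome 15, from 102921103 to 103036852, and HoxD holds 9 genes on chromosome 2, from 74668310 to 74765142, all on the plus strand. The libraries were poly(A) RNA-seq libraries of cells made from mouse embryonic stem cells (ESCs), which were taken toward primitive macrophage progenitors, the first macrophage precursors of the embryo, for 4 days with FGF2, BMP-4, activin A and VEGF. One group of 3 libraries came from ESCs established from the Ts1Cje mouse, a Down syndrome model with an extra copy of a segment of chromosome 16, and the other group of 3 came from wild-type ESCs. The study set out to ask why microglia, which descend from such progenitors, are fewer in Ts1Cje embryos. The libraries of a group are numbered as lots (replicates 1 to 3 here), and the labels do not say how many ESC lines or separate differentiations they stand for. The p-values therefore measure the spread between these libraries, which may be technical, and genotype and cell line cannot be told apart.

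Hox genes encode homeodomain transcription factors that give cells their position along the head-to-tail axis. Within a cluster they lie in the order in which they act: genes of low paralogue number are switched on first and reach farthest forward, and genes of high number come on later and farther back. In the embryo they start in the posterior epiblast and its mesoderm under Wnt, FGF and retinoic acid signals and caudal (Cdx) factors, while in undifferentiated ESCs the clusters are held silent by Polycomb complexes; in blood progenitors, members such as Hoxb4 and the HoxA genes are known for their part in expansion.

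The 6 libraries held between 16577065 and 19010856 counts. On the triplicated segment, from after the start of Sod1 to the end of Zbtb21 on chromosome 16, 48 of 76 tested genes were higher and 6 lower in Ts1Cje, with a median log2 fold change of 0.48. The median deviation of that segment from the wild-type mean was between 0.47 and 0.53 (log2) in the Ts1Cje libraries and at most 0.02 in the wild-type libraries. No Hox gene lies on it. Defining markers of mature macrophages were close to absent in both groups: Ptprc, Cx3cr1 and Fcgr1 had 0 counts in every library, Adgre1 had 1 count in all and Lyz2 had 2, while Csf1r had 245 to 296 counts in the wild-type and 268 to 385 in the Ts1Cje libraries. The groups differed in the levels of other cell type lists. Summed over 12 pluripotency genes, the level was 64.6 to 202.9 CPM (counts scaled to library size) in wild-type and 667.1 to 993.1 in Ts1Cje libraries, and 9 of the 12 passed as higher. Over 11 endoderm genes it was 213.7 to 259.4 against 1007 to 1386, with 11 of 11 higher, and over 12 mesoderm genes 2305 to 2441 against 496.2 to 694.3, with 8 of 12 lower. The fibroblast list had 4 of 5 tested genes lower (105.1 to 218.2 against 19.2 to 30.6), the neural list 3 of 7 higher and 1 lower (70.1 to 135.4 against 255.8 to 271.3), and the blood and macrophage list 3 of 8 higher and 2 lower (136.3 to 203.8 against 218.3 to 237.2). These differences stand beside every Hox result below, and their part in those results was not tested. Among all genes tested, 20.5% passed as lower and 23.3% as higher, and calls in the neural and the blood and macrophage lists went both ways. In such bulk libraries fewer cells of a type and less RNA per cell cannot be told apart.

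RefSeq promoter windows (assembly GRCm38.p6, 250 bases before to 50 after a start) were matched for 22 of the 39 genes, in 24 windows. Those of Hoxb8, Hoxb1 and Hoxb4 are shown up to the start, because these 3 genes of the HoxB cluster span the range of the response described further on: Hoxb8 was among the genes with the fewest Ts1Cje counts, Hoxb1 was the most abundant Hox gene, and Hoxb4 was the tested HoxB gene with the smallest fold change. All are written 5′ to 3′ on the plus strand, and capitals mark matches to the caudal word TTTATNG or the Hox-Pbx word TGATNNAT on either strand.
Hoxb8, chr11:96281655-96281904: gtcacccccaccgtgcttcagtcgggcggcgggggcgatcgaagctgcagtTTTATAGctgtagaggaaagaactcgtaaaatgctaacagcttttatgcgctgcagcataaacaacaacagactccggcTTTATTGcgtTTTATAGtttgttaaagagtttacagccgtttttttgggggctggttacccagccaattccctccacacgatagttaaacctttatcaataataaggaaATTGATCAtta
Hoxb1, chr11:96365508-96365757: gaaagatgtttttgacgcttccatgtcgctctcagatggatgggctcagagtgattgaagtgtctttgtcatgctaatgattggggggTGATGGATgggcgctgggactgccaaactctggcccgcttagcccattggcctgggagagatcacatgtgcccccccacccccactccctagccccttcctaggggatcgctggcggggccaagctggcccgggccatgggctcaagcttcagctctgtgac
Hoxb4, chr11:96318017-96318266: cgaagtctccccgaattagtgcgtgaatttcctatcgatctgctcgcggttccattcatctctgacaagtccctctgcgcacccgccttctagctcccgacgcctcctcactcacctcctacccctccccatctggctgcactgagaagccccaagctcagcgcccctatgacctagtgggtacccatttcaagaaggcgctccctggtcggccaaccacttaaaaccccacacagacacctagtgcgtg
The Hoxb8 window held 3 matches to TTTATNG and, 11 bases before the start, 1 match to TGATNNAT on the reverse strand. Hoxb1 held 1 match to TGATNNAT, and Hoxb4 held neither word. The matches shown do not overlap. Among all 24 Hox windows, 2 held TTTATNG (Hoxb8 and Hoxd4) and 4 held TGATNNAT, while 10.9% and 8.85% of the 32851 windows in the table did. No Hox window held the DR5 word of retinoic acid receptors (AGGTCA repeated with 5 bases between), which 3 windows in the table held. The Hox windows had a median of 14.5 CpG dinucleotides, with a range of 4 to 45, against a median of 7 over the table. A match describes letters in a window and shows no binding.

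Hox transcripts were far lower in the Ts1Cje libraries. Summed over the 39 genes, the level was 363.5, 504.9 and 405.6 CPM in wild-type replicates 1 to 3 and 23.8, 50.7 and 19.8 CPM in the Ts1Cje replicates. The highest Ts1Cje library was below the lowest wild-type library by several fold, and the means, 424.7 ± 72.6 and 31.4 ± 16.8 CPM (SD, n = 3 each), differed 13.5-fold. Of the 39 genes, 25 had enough counts to be tested by edgeR's quasi-likelihood test across 17315 genes, 24 passed as lower in Ts1Cje at an adjusted p of 0.05 and 1, Hoxc13, passed as higher. For comparison, 20.5% of all genes tested passed as lower and 23.3% as higher, 43.8% in either direction. The median log2 fold change (Ts1Cje over wild-type) of the tested Hox genes was -4.09, against -0.01 over all genes tested, and it was the same with Hoxc8 and Hoxd3, which had 0 counts in Ts1Cje, set at the bound that a floor of 3 counts allows. The 23 tested genes with counts in both genotypes ranged from -8.70 for Hoxb6 to 2.15 for Hoxc13. Passing genes that fell by 8-fold or more numbered 18 among the Hox genes and 206, or 1.19%, among all genes tested. Of the tested Hox genes, 19 reached the count minimum in all 3 wild-type libraries but not in all 3 Ts1Cje libraries. For 1 (Hoxc13) it was the reverse. In such genes the filter itself favours a difference in that direction. The 5 that reached the minimum in every library (Hoxb1, Hoxb2, Hoxb3 and Hoxb4 among them) are the members that did not depend on the filter in this way, and all 5 fell. Over all 39 genes, tested or not, 34 had fewer pooled counts in Ts1Cje, 28 had every Ts1Cje library below every wild-type library and 1 had every Ts1Cje library above (26.4% and 28.8% of all genes tested).

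**Figure D1:**
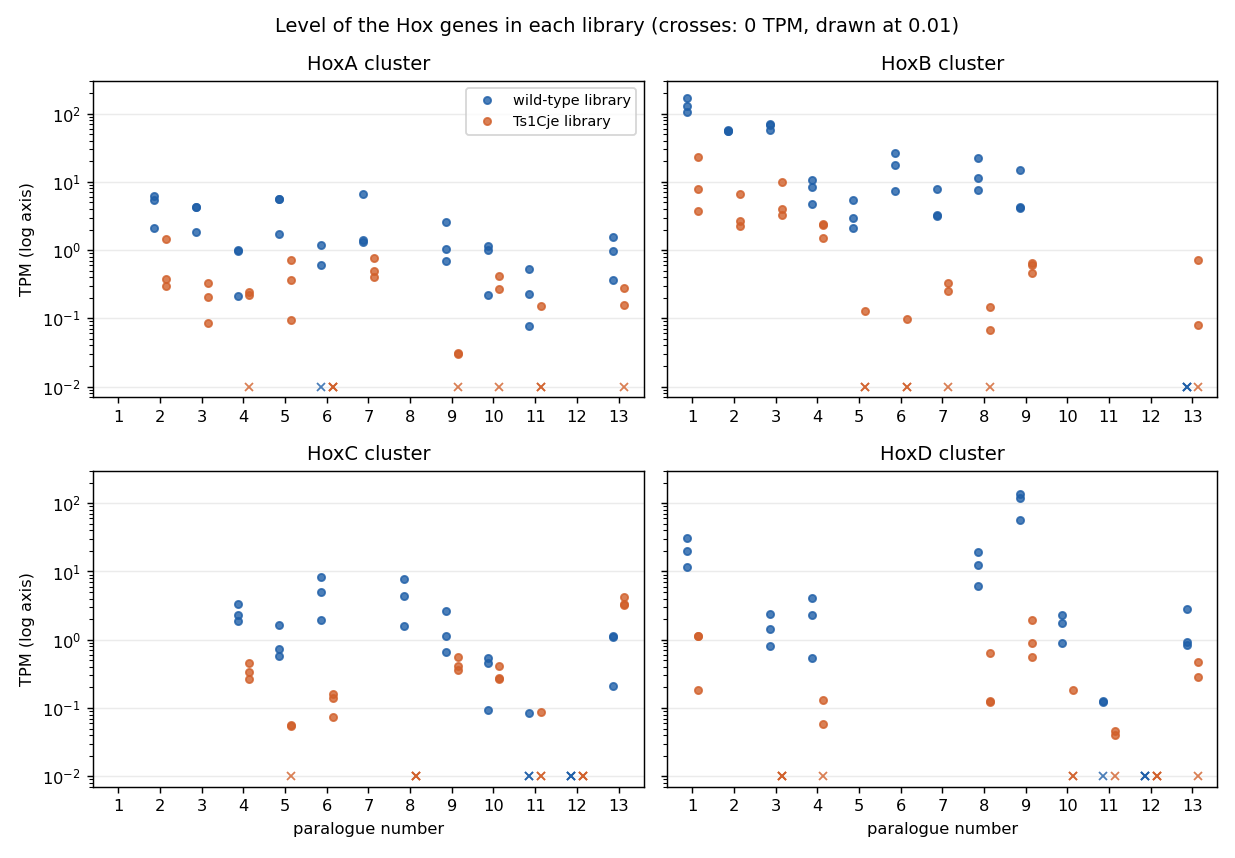
TPM of the Hox genes reported here (log axis) by paralogue number, with 1 panel per cluster and 1 point per library; crosses mark libraries at 0 TPM, drawn at 0.01. For 28 of all 39 genes the wild-type libraries are all above the Ts1Cje libraries, and the order is turned at Hoxc13, where the Ts1Cje libraries are all above the wild-type libraries.

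The anterior genes, paralogue groups 1 to 3, gave most of the Hox RNA in wild-type cells. All 8 of them passed as lower, where 20.5% of all genes tested did. Hoxa2, Hoxa3, Hoxd1 and Hoxd3 did not reach the count minimum in all 3 Ts1Cje libraries, so the filter favours such a call for them. Hoxb1, a marker of early posterior mesoderm and later of the fourth hindbrain segment, had the highest mean level. It had 2188, 1705 and 1398 counts in wild-type replicates 1 to 3 and 103, 280 and 51 counts in the Ts1Cje replicates. Every Ts1Cje library was below every wild-type library, and Ts1Cje replicate 2 held more than both other libraries together. The mean level was 133 ± 32.2 TPM (reads scaled for transcript length and depth) against 11.7 ± 10.5 TPM (SD, n = 3 each), with a log2 fold change of -3.54 ± 0.66 (SE, adjusted p = 0.00997). Without Ts1Cje replicate 2 the log2 fold change of Hoxb1 was -4.53.

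Hoxb2, which patterns the hindbrain with Hoxb1 and is one of its targets, had 1121, 1131 and 1129 counts in wild-type and 54, 118 and 47 counts in Ts1Cje libraries. The wild-type libraries hardly differed from each other, at 56.4 ± 0.727 TPM. Its log2 fold change was -3.90 ± 0.35 (adjusted p = 0.000255). Hoxb3, the next gene of the cluster, had 1355, 1732 and 1679 against 98, 215 and 83 counts, with means of 65.2 ± 7.56 and 5.73 ± 3.60 TPM. The groups did not overlap, Ts1Cje replicate 2 was again the highest of its group, and the log2 fold change was -3.54 ± 0.41 (adjusted p = 0.00129). Of the exonic bases of Hoxb3, 52.9% are shared with the antisense gene Hoxb3os, and of those of Hoxb2, 27.3%. The strand setting of the counting is not given in the sources used here, so reads of these genes may not be separated. Without Ts1Cje replicate 2 the log2 fold changes were -4.50 for Hoxb2 and -4.15 for Hoxb3.

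Hoxa2, the selector gene of the second pharyngeal arch, had 62, 55 and 22 against 3, 13 and 4 counts. The groups did not overlap, and the log2 fold change was -2.73 ± 0.60 (adjusted p = 0.00491), or -3.70 without Ts1Cje replicate 2. Hoxa3, needed for thymus and parathyroid, was lower by a log2 fold change of -4.09 ± 0.47. Hoxd1 had 120, 331 and 214 counts in wild-type and 12, 11 and 2 in Ts1Cje libraries. Its highest wild-type library was replicate 2, unlike that of Hoxb1, and its means were 20.7 ± 9.80 and 0.820 ± 0.553 TPM, with a log2 fold change of -4.68 ± 0.57 (adjusted p = 0.000439). Hoxd3 had 19, 57 and 35 counts in wild-type and 0 in each Ts1Cje library. Taking 3 pooled Ts1Cje counts as the floor, it was at least 36.3-fold lower (adjusted p = 0.000514), and 62.8% of its exonic bases are shared with other genes, Hoxd4 among them.

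Genes of paralogue groups 4 to 9, which mark cervical to thoracic levels of the trunk, were lower by widely different folds. All 15 tested passed as lower, where 20.5% of all genes tested did. Only Hoxb4 of these reached the count minimum in all 3 Ts1Cje libraries. For the others the filter itself favours a call as lower, and it left out members with few counts such as Hoxc9 and Hoxa4. The median log2 fold change was -5.26, against -3.72 for the 8 genes of groups 1 to 3. The filter bears on both medians, and the difference between the ranges was not tested. Hoxd9, the second most abundant Hox gene in wild-type cells, had 684, 1667 and 1475 counts in wild-type and 11, 21 and 7 counts in Ts1Cje libraries. The wild-type libraries differed more than 2-fold among themselves, yet the lowest of them stood far above all Ts1Cje libraries. The means were 104 ± 41.6 and 1.12 ± 0.709 TPM and the log2 fold change was -6.57 ± 0.57 (adjusted p = 0.000339), the pooled counts being 96.1-fold lower. Hoxd8, its neighbour, had 95, 305 and 198 against 2, 9 and 2 counts. Both groups were highest in replicate 2 and did not overlap, and the log2 fold change was -5.45 ± 0.67 (adjusted p = 0.000458), or -6.57 without Ts1Cje replicate 2.

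Several trunk genes were at or near 0 in Ts1Cje cells, and for these the counts pooled over a genotype are given with a 95% exact binomial interval, which covers counting error only. Hoxb6 had 80, 300 and 202 counts in wild-type and 0, 1 and 0 counts in Ts1Cje libraries, a pooled ratio of 570 with an interval from 102 to 22560. Hoxb8, whose forced expression is used to hold myeloid progenitors in a growing state, had 114, 333 and 172 against 1, 2 and 0 counts, a ratio of 202 with an interval from 68.9 to 983. Hoxb5 had 33, 87 and 48 against 2, 0 and 0 counts, a ratio of 82.3 with an interval from 22.4 to 685. These 3 genes of 1 cluster together left 6 counts in the 3 Ts1Cje libraries. Hoxc8 had 25, 124 and 71 counts in wild-type and none in Ts1Cje libraries, and was at least 71.9-fold lower against the floor of 3 counts (adjusted p = 0.00388). Hoxa9, a leading factor of definitive blood progenitors, had 22, 83 and 34 against 1, 0 and 1 counts, a ratio of 68.1 with an interval from 18.5 to 567.9. Hoxc5 had 10, 29 and 13 against 1, 0 and 1 counts, a ratio of 25.5 with an interval from 6.71 to 216. For all of these the wild-type groups were spread, with replicate 2 the highest, and the Ts1Cje libraries were all below them. Adjusted p-values were 0.000209 for Hoxb6, 8.64e-05 for Hoxb8, 0.000176 for Hoxb5, 0.000391 for Hoxa9 and 0.00175 for Hoxc5. Without wild-type replicate 2 the fitted log2 fold change of Hoxa9 was -5.13 (from -5.85), and without Ts1Cje replicate 2 that of Hoxb8 was -8.38 (from -7.49). Leaving out Ts1Cje replicate 2 for Hoxb6 or Ts1Cje replicate 1 for Hoxb5 left no Ts1Cje count, and the fitted values of -10.61 (from -8.70) and -8.79 (from -6.12) then depend on the prior count. Hoxd4, not tested, had 9, 69 and 40 against 0, 2 and 1 counts, a ratio of 38.5 with an interval from 12.9 to 190; 52.3% of its exonic bases are shared, Hoxd3 again among the overlapping genes.

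The other genes of groups 4 to 9 are given next. Hoxb4, long studied for its expansion of blood stem cells, had 69, 156 and 126 counts in wild-type and 22, 32 and 36 counts in Ts1Cje libraries. Its groups did not overlap, but its log2 fold change of -1.93 ± 0.34 (adjusted p = 0.00125) was the smallest among the tested genes that fell. Hoxc4, the gene of the same paralogue number in HoxC, had 33, 49 and 28 against 5, 6 and 4 counts, with a log2 fold change of -2.81 ± 0.42 (adjusted p = 0.000498). The groups of Hoxc4 did not overlap. Hoxc6 had 26, 114 and 70 against 1, 2 and 2 counts and a log2 fold change of -5.26 ± 0.71 (adjusted p = 0.000338). Hoxa5, known for its part in lung and axial skeleton, had 60, 60 and 19 against 1, 7 and 4 counts, with a log2 fold change of -3.45 ± 0.64 (adjusted p = 0.00194), or -4.17 without Ts1Cje replicate 2. Wild-type replicate 3 was the low library for Hoxa5, still above every Ts1Cje library. Hoxa7 had 23, 111 and 22 counts in wild-type and 8, 6 and 13 in Ts1Cje libraries, so that 1 wild-type library carried most of its counts. Its log2 fold change was -2.49 ± 0.74 (adjusted p = 0.0255). The call was lost without wild-type replicate 2 (log2 fold change -1.30, adjusted p = 0.0632) and without any 1 of the Ts1Cje libraries (adjusted p from 0.0629 to 0.0983). Hoxb7 and Hoxb9 fell by log2 fold changes of -4.51 ± 0.70 and -3.73 ± 0.62, and without Ts1Cje replicate 3 the former was -5.14, without wild-type replicate 2 the latter -2.87. Further genes of this range had few reads: Hoxa4 had 9, 9 and 2 against 2, 2 and 0 counts, and Hoxa6 had 0, 3 and 6 against 0. Hoxc9 was untested too, with 9, 37 and 16 against 5, 7 and 6 counts, a pooled ratio of 3.38.

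**Figure D2:**
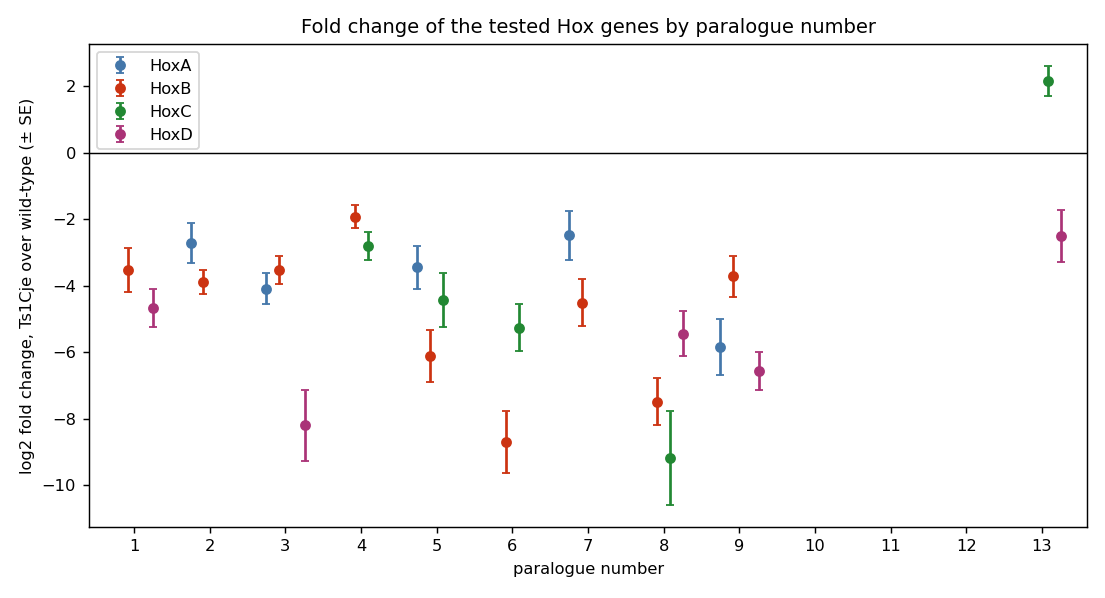
Log2 fold change (Ts1Cje over wild-type) of 24 tested Hox genes by paralogue number, coloured by cluster; bars are standard errors of the fit. Groups 5, 6, 8 and 9 hold most of the values below -5, Hoxb4 has the smallest decrease, and Hoxc13 is the 1 point above 0; values of Hoxc8 and Hoxd3 depend on the prior count because Ts1Cje had none.

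The posterior genes, groups 10 to 13, which act in the limbs, lower back, genitalia and tail, had few reads in either genotype, and 2 of them were tested. Hoxc13, known for its role in hair and nails, was the Hox gene that rose. It had 15, 16 and 3 counts in wild-type and 46, 42 and 61 counts in Ts1Cje libraries. All Ts1Cje libraries were above all wild-type libraries, and wild-type replicate 3 was lowest. The means were 0.809 ± 0.519 and 3.60 ± 0.517 TPM, the log2 fold change was 2.15 ± 0.46 (adjusted p = 0.00394), and the pooled counts, 34 and 149, gave a ratio of 4.47 with an interval from 3.06 to 6.70. The call was kept without each of the 6 libraries in turn. Hoxc13 lies at the 5′ end of HoxC, at 102921103 to 102928814 on chromosome 15, and shares its cluster with Hoxc8. Hoxd13, the distal limb gene, had 13, 40 and 12 against 4, 0 and 7 counts and a log2 fold change of -2.51 ± 0.79 (adjusted p = 0.0287). Its groups did not overlap, but its call was lost without wild-type replicate 2 (log2 fold change -1.73, adjusted p = 0.141) and without Ts1Cje replicate 1 or 2 (adjusted p = 0.0801 and 0.0628). Without Ts1Cje replicate 3 its log2 fold change was -3.30.

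The untested posterior genes did not follow a single direction. Hoxd10 had 9, 18 and 24 counts in wild-type and 0, 0 and 2 in Ts1Cje libraries, a pooled ratio of 24.99 with an interval from 6.57 to 212. Hoxa13 had 5, 22 and 14 against 4, 2 and 0 counts. Both had all Ts1Cje libraries below all wild-type libraries. Hoxa10 had 4, 19 and 22 against 5, 0 and 8 counts, Hoxa11 had 1, 3 and 7 against 2, 0 and 0, and Hoxc10 had 1, 6 and 5 against 3, 4 and 3. In these 3 the groups overlapped. Hoxb13, which stands apart from the rest of its cluster, had no count in wild-type libraries and 1, 8 and 0 counts in Ts1Cje libraries, so that 8 of its 9 counts came from 1 library. Hoxd11 had 6 and 2 counts pooled over wild-type and Ts1Cje, and Hoxc11 had 1 and 1. Hoxc12 and Hoxd12 had 0 counts in every library. At this depth no difference was detectable for these last 4 genes.

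By cluster, HoxB held most of the Hox RNA in wild-type cells and HoxD had the largest fold difference. Summed CPM of HoxB was 273.3, 310.1 and 265.6 in wild-type and 15.9, 39.6 and 12.1 in Ts1Cje libraries, a 12.6-fold difference of the means. The wild-type libraries were close together, and Ts1Cje replicate 2 was the highest of its group; without it the log2 ratio of the HoxB sums was -4.34 instead of -3.65. Summed CPM of HoxD was 51.5, 134.6 and 109.7 in wild-type and 1.59, 2.62 and 1.15 in Ts1Cje libraries, a 55.1-fold difference with wild-type replicate 1 the lowest of its group. HoxA gave 32.3, 39.9 and 18.97 against 2.96, 4.83 and 2.52 CPM, an 8.84-fold difference. HoxC, which includes Hoxc13, gave 6.44, 20.3 and 11.4 against 3.40, 3.64 and 4.04 CPM, a 3.44-fold difference. Most of the HoxC sum in Ts1Cje was Hoxc13, with a mean of 2.74 CPM where the sum had 3.69. In wild-type Hoxc13 had 0.614 CPM where the sum had 12.7. The small fold of HoxC thus rests on this gene that rose. In none of the 4 clusters did the sums of the groups overlap. Median log2 fold changes of the tested genes were -3.21 for HoxA (6 genes), -3.90 for HoxB (9), -4.44 for HoxC (5) and -5.45 for HoxD (5), the last -5.18 with Hoxd3 at its bound. Differences between clusters were not tested.

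**Figure D3:**
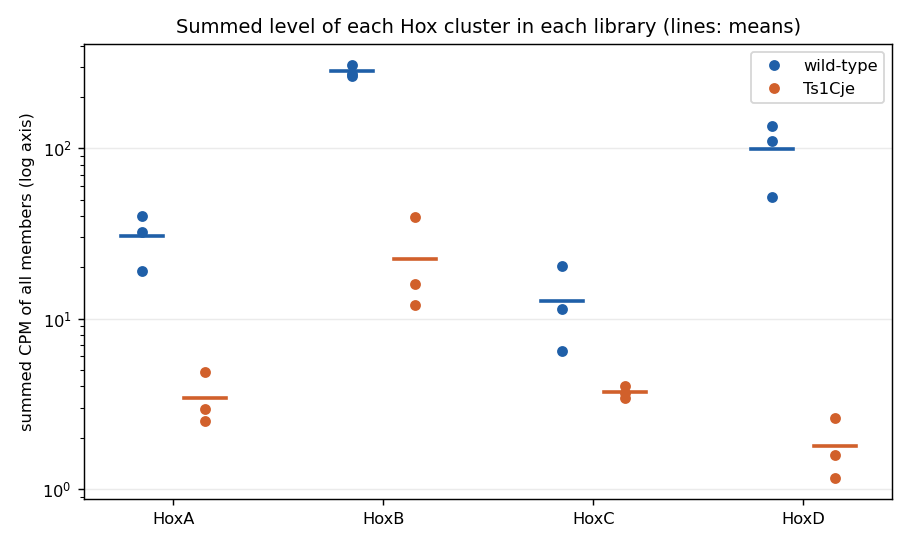
Summed CPM (log axis) of all members of each Hox cluster, with 1 point per library and a line at each group's mean. The groups are apart in all 4 clusters, by 3.44-fold in HoxC, whose Ts1Cje sum is mostly Hoxc13, and 55.1-fold in HoxD.

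The make-up of the remaining Hox RNA differed as well. HoxD made up 17.8% to 33.7% of the Hox TPM in wild-type and 6.51% to 8.88% in Ts1Cje libraries, and HoxC 1.87% to 4.12% against 8.23% to 23.4%. Groups 10 to 13 made up 0.862% to 1.47% against 7.78% to 24.5%. HoxA made up 4.76% to 9.37% against 11.5% to 13.9%. In none of these shares did the ranges of the genotypes overlap. The share of HoxC and that of groups 10 to 13 both rested mainly on Hoxc13 in Ts1Cje. The share of groups 1 to 3 did overlap, at 51.7% to 74.3% in wild-type and 48.6% to 77.8% in Ts1Cje libraries. By paralogue number, summed CPM was lower in Ts1Cje by 11.6-fold in group 1, 14.1-fold in group 2, 12.02-fold in group 3, 5.21-fold in group 4, 21.7-fold in group 5, 128.6-fold in group 6, 8.69-fold in group 7, 84.4-fold in group 8, 50.4-fold in group 9 and 4.33-fold in group 10. The groups of libraries did not overlap in any of these 10 sums. They overlapped for groups 11 and 13, and group 12 had no counts. The fold in group 6 rested on 106, 417 and 278 counts against 1, 3 and 2. Without Ts1Cje replicate 2 the log2 ratios were -4.43 in group 1 (from -3.54), -4.46 in group 2 (from -3.81), -4.21 in group 3 (from -3.59) and -7.59 in group 8 (from -6.40), and group 8 then passed group 6 at -7.51. Without wild-type replicate 2 the ratio of group 7 was -2.23 (from -3.12).

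In order of mean wild-type TPM, Hoxb1, Hoxd9, Hoxb3 and Hoxb2 led at 133, 104, 65.2 and 56.4. The ranges of each of these and the next overlapped, and the step from Hoxb2 to Hoxd1, the next gene at 20.7 TPM, exceeded the spread of the libraries. By mean TPM over the Ts1Cje libraries Hoxb1, Hoxb3 and Hoxb2 stood at 11.7, 5.73 and 3.86, with replicate 2 the highest library for each, and Hoxd9 stood at rank 7. The order was not the same in each library: in Ts1Cje replicate 3 Hoxc13, at 4.19 TPM, was above Hoxb1 at 3.71, Hoxb3 at 3.30 and Hoxb2 at 2.28, and in replicate 1 it was above Hoxb2, at 3.27 against 2.71.

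The wild-type libraries differed among themselves, and in HoxA and HoxB the difference was not the same for low and high paralogue numbers. By CPM, replicate 2 was the highest wild-type library for 15 of the 15 tested genes of groups 4 to 9, although for Hoxa5 replicates 1 and 2 were level at 60 counts each. The median log2 ratio of replicate 2 to replicate 1 was 1.92 in HoxA and 1.47 in HoxB for groups 4 to 9, and -0.17 and 0.01 for groups 1 to 3. In HoxD it was 1.48 for groups 4 to 9 and 1.53 for groups 1 to 3, where Hoxd1 and Hoxd3 were also highest in replicate 2. The difference between the ranges was not tested. Over all 25 tested Hox genes replicate 2 was highest for 21, as it was for 28.6% of all genes tested. It exceeded replicate 1 at least 2-fold in 16 of the 25 Hox genes and in 3.25% of all genes tested. Replicate 1 also had the highest summed level of the pluripotency list among the wild-type libraries, 202.9 CPM against 73.8 and 64.6, and a similar mesoderm sum, 2305 against 2374 and 2441. The part of these markers in the spread was not tested. In the Ts1Cje group, replicate 2 was the highest library for 6 of the 6 tested HoxA and HoxB genes of groups 1 to 3, and for 14 of the 25 Hox genes against 32.9% of all genes tested. Genes of 1 cluster share their libraries and may share their regulation, so they are not independent observations of this spread.

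**Figure D4:**
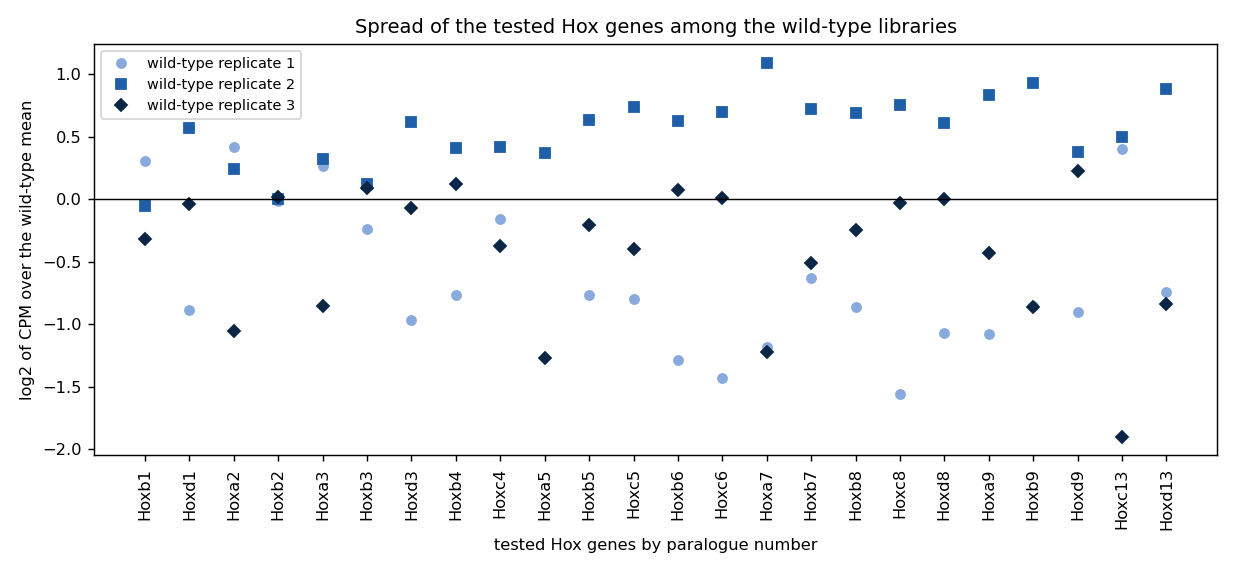
Log2 of each wild-type library's CPM over the wild-type mean for 24 tested Hox genes, ordered by paralogue number, with 1 symbol per library. Replicate 2 lies on top from Hoxb4 to Hoxd9 (groups 4 to 9), level with replicate 1 at Hoxa5, and also at Hoxd1 and Hoxd3, while the order varies among the HoxA and HoxB genes of groups 1 to 3; symbols that coincide hide each other.

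Most tested non-member transcripts inside the clusters were lower, as the Hox genes were, and genes outside did not share one direction. Between the first and last member of each cluster lie 46 other rows, 20 of them at 0 counts in every library. Of 13 tested, 12 passed as lower and none as higher, with a median log2 fold change of -3.89. Over all genes tested, 20.5% passed as lower and 23.3% as higher. Gm28230 and other tested rows of the HoxD cluster reached the count minimum through the wild-type libraries alone. The 20 other rows of HoxA together held 1.26, 2.26 and 1.05 CPM in Ts1Cje replicates 1 to 3. Most of the 4 tested there thus missed the minimum of 0.541 CPM in at least 1 Ts1Cje library. For such rows the filter itself favours a call as lower. Hoxb3os, the antisense transcript of Hoxb3, had 2296, 2787 and 2757 counts in wild-type and 140, 327 and 133 in Ts1Cje libraries, with a log2 fold change of -3.65 ± 0.43. Haglr, a long noncoding RNA of the HoxD cluster, had 121, 190 and 182 against 12, 8 and 15 counts and a log2 fold change of -3.78 ± 0.29 (adjusted p = 9.71e-06). Neither pair of groups overlapped. Gm28230, a protein-coding row that overlaps Hoxd3 and Hoxd4, had 20, 23 and 25 counts in wild-type and 0 in each Ts1Cje library. The 13th row was Gm53, a noncoding RNA between Hoxb13 and Hoxb9, with 12, 26 and 22 against 20, 29 and 38 counts and a log2 fold change of 0.56 (adjusted p = 0.281). Of the 39 members, 23 share no exonic base with another gene in the annotation, and 3 share more than 50% (Hoxb3, Hoxd3 and Hoxd4).

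Of 107 protein-coding genes that start within 1 Mb of a cluster, 87 were tested, 24 passed as lower, 26 as higher and 37 did not pass, with a median log2 fold change of -0.03. Over all genes tested 20.5% passed as lower and 23.3% as higher. Both shares were somewhat higher among the neighbours, and neither direction prevailed. Evx1, the homeobox gene beside Hoxa13, was lower with a log2 fold change of -1.65 ± 0.29 (adjusted p = 0.00572). Skap1, beside Hoxb1, had -1.74, and Mtx2, beside Hoxd1, had -0.57, both passing as lower. Ttll6, the nearest tested gene on the Hoxb13 side, passed as higher with 2.34. Lnpk, which lies on the Hoxd13 side but is not the gene next to it, and Smug1 beside Hoxc4 did not pass, with -0.25 and -0.20.

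**Figure D5:**
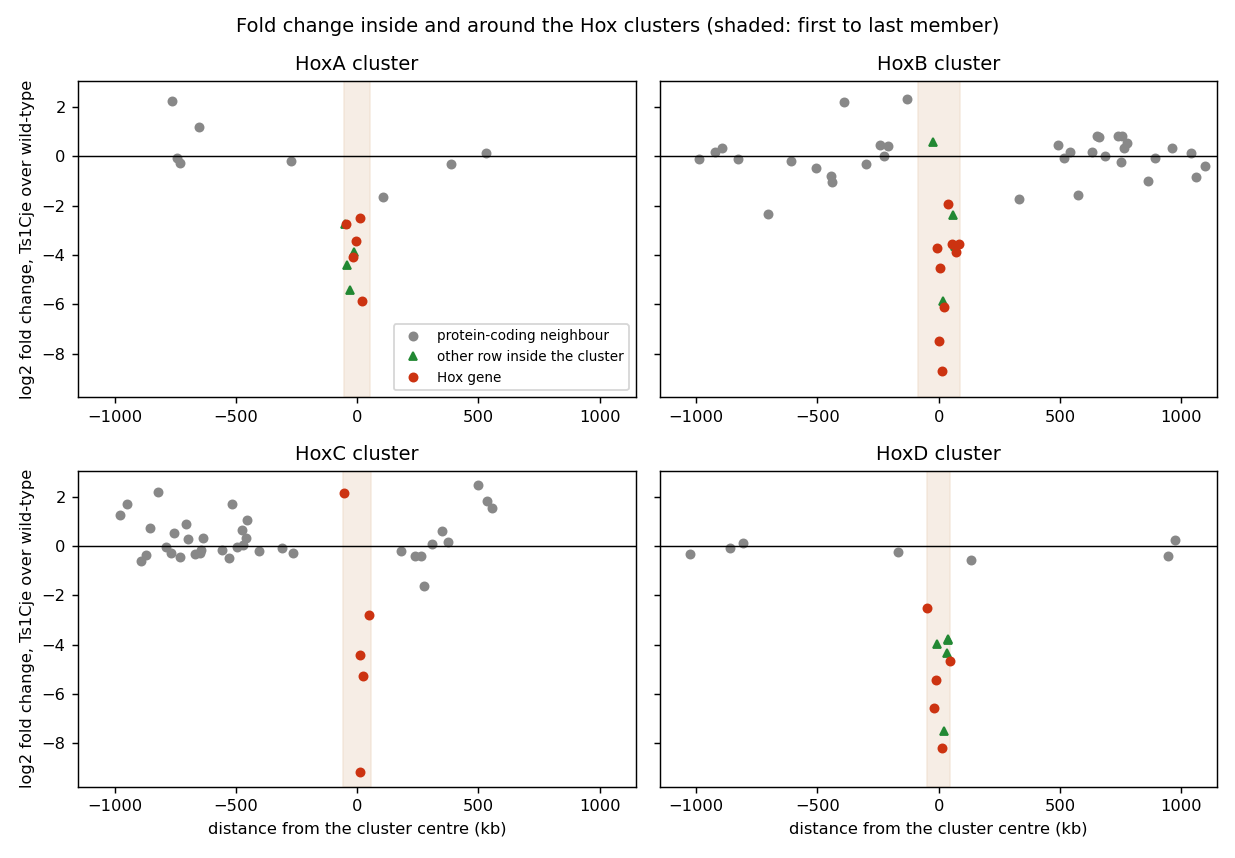
Log2 fold change (Ts1Cje over wild-type) of tested genes against distance from the centre of each Hox cluster in kb; red points are the Hox genes reported here, green triangles other rows inside the cluster, grey points protein-coding neighbours, and shading spans the first to the last member. Values below -3 lie inside the shaded spans, while the 87 neighbours scatter around a median of -0.03.

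Hox proteins bind DNA with partners of the Pbx, Meis and Pknox families. Of 10 cofactor genes tested, 5 passed as lower, 2 as higher and 3 did not pass, with a median log2 fold change of -0.44. Among all genes tested, 20.5% passed as lower and 23.3% as higher. Meis2 had 1545, 1381 and 1215 counts in wild-type and 219, 344 and 204 in Ts1Cje libraries, with a log2 fold change of -2.39 ± 0.24 (adjusted p = 0.000238). Pknox2, Meis1 and Meis3 had -1.64 ± 0.15, -1.55 ± 0.18 and -1.20 ± 0.13. The Meis genes were thus lower by a smaller fold than the Hox median of -4.09. Pbx4 (0.78, adjusted p = 0.0483) and Pknox1 (0.38, adjusted p = 0.038) passed as higher, and neither call was kept without wild-type replicate 1, wild-type replicate 2 or Ts1Cje replicate 2 or 3.

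The caudal factors, which act on trunk Hox genes in the posterior embryo, were lower as well. Cdx2 had 2960, 4589 and 3921 counts in wild-type and 56, 143 and 77 in Ts1Cje libraries, with a log2 fold change of -5.33 ± 0.40 (adjusted p = 0.000277). Cdx4, on the X chromosome, had 274, 279 and 151 against 0, 0 and 1 counts, a pooled ratio of 689.8 with an interval from 123.4 to 27290 (adjusted p = 2.99e-06). Cdx1 had 36, 16 and 12 against 3, 3 and 3 counts and a log2 fold change of -2.75 ± 0.59. All 3 tested genes of the 6 on the list passed as lower, where 20.5% of all genes tested did. Cdx4 and Cdx1 reached the count minimum through the wild-type libraries alone, and for such genes the filter itself favours a call as lower. Of the others, Pdx1 had 83 and 11 pooled counts in wild-type and Ts1Cje, and Gsx1 and Gsx2 had at most 6 in either.

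Of 18 tested genes of the posterior growth zone, 8 passed as lower, none as higher and 10 did not pass, with a median log2 fold change of -1.20. Nkx1-2, a marker of axial progenitors, had -3.48 ± 0.22 (adjusted p = 3.6e-06), Wnt5a -2.76 ± 0.34 and Fgf8 -0.45 ± 0.10. T, the Brachyury gene of early mesoderm, did not pass at -0.74 ± 0.38 (adjusted p = 0.183), and neither did Sp5 at 0.52 ± 0.65. Of 17 tested genes of the retinoic acid pathway, 6 passed as lower, 3 as higher and 8 did not pass, with a median of -0.17. The shares of all genes tested, beside which both lists stand, were 20.5% lower and 23.3% higher. Aldh1a2, the main enzyme that makes retinoic acid in the early embryo, had -4.55 ± 0.71 (adjusted p = 0.00541), and the binding protein Crabp1 had -3.01 ± 0.46. Dhrs3, which turns retinaldehyde back into retinol, was higher at 2.80 ± 0.26, as were Stra6, the retinol uptake receptor, at 1.54 ± 0.18 and Rxrg at 1.74 ± 0.55. Cyp26a1, the breakdown enzyme, did not pass at 0.21 ± 0.13.

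The chromatin factors known for control of the Hox clusters had medians near 0. Of 28 Polycomb subunits, 8 passed as lower, 6 as higher and 14 did not pass, with a median of -0.05, near the 20.5% lower and 23.3% higher of all genes tested. Cbx7, the reader subunit typical of ESCs, was higher at 1.76 ± 0.10 (adjusted p = 1.75e-06), as were Phc1 at 0.72 ± 0.10 and Jarid2 at 0.51 ± 0.09. The catalytic subunit Ezh2 had -0.34 ± 0.06 and Mtf2 -0.35 ± 0.06. Of 16 genes of the MLL complexes and the H3K27 demethylases, which oppose Polycomb, 4 passed as lower, 1 as higher and 11 did not pass, with a median of -0.05. Mllt3 had -1.77 ± 0.16, Kdm6b -0.79 ± 0.08, Kmt2a -0.29 ± 0.08 and Kmt2c, the gene that was higher, 0.67 ± 0.10. Without wild-type replicate 2 the number lower was 2, and without wild-type replicate 1 the number higher was 2. Of 11 genes of CTCF and cohesin, which hold chromatin loops, 7 passed as lower and none as higher, with a median of -0.18. That share lower was above the 20.5% of all genes tested, although the folds were small. The number lower was 4 without wild-type replicate 2 or Ts1Cje replicate 3. Pds5b had -0.83 ± 0.08 and Smc1a -0.45 ± 0.06, while Ctcf itself did not pass at -0.16 ± 0.07.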

How the data were processed

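Gene counts and TPM were used as the authors deposited them in 1 table for all 6 libraries; the deposited counts are whole reads per gene and the deposited TPM are scaled per length and library. Libraries were made from poly(A) RNA with a directional kit, per the labels' protocols. The submitters' processing notes name FastQC 0.11.7, Trimmomatic 0.38, HISAT2 2.1.0, featureCounts 1.6.3 and build mm10; no source used here gives the strand setting or annotation, although the coordinates of all 39 Hox rows, and of 99.2% of 55227 shared identifiers, were identical to those of GENCODE M21, from which exon overlaps were taken.

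Groups came from the labels, 3 libraries each. Differences were tested with edgeR 4.0.16 (R 4.3.3) on the counts: genes passing filterByExpr (minimum count 10, total 15), TMM factors, robust quasi-likelihood fits and Benjamini-Hochberg adjustment over all 17315 genes kept, at a threshold of 0.05. SE was obtained by dividing the absolute log2 fold change by the root of the F statistic. CPM uses TMM-scaled library sizes, and levels were compared between genes only in TPM. For genes with few counts, pooled counts were compared by 95% exact binomial intervals or, at 0, against 3 pooled counts as a floor. The fits were also run on simulated counts in which few genes changed, so that run does not show how they behave when many genes differ, as here. PCR reads without molecular identifiers are not independent molecules, so intervals and floors cover counting error only. Per-library counts were printed for the 3 most abundant tested genes of each cluster, the one with the smallest fold change, and genes with 0 to 3 pooled counts in one genotype and over 50 in the other; other members are described after their values were seen. From the lists, up to 4 genes with the smallest adjusted p and genes against the majority were named; further list genes (such as T, Cyp26a1, Ctcf, Kmt2a and Ezh2) and neighbours were chosen after their values were seen. Some genes that the rules would name are not reported here; they remain in the sums and counts. The members and lists were chosen with earlier results of these data known. Alternatives were DESeq2 1.42.0, limma 3.58.1 (voom, and trend on log2 TPM with pseudocounts of 1 and 0.1), other scaling factors and filters, a replicate block, and leaving out each library.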

Additional observations from a re-analysis of the deposited data

How the results depend on the processing

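Of 364 values recomputed for single tested Hox genes under 15 alternatives, none reversed and 354 kept their direction and their side of the threshold. The other 10 lost the call and belong to Hoxa7 and Hoxd13; beyond the losses given above, Hoxa7 lost it in limma-trend on log2(TPM + 1) (adjusted p = 0.0678) and in limma-voom (0.0786). A minimum mean log2 CPM of 1 leaves fewer genes to test and gave 14 Hox genes lower and 0 higher, and 5 other rows inside the clusters lower. Limma-trend on log2(TPM + 1) gave a median Hox log2 fold change of -2.17; the larger pseudocount shrinks the folds of genes near 0. Both limma-trend fits and upper-quartile factors gave 1 cofactor higher, both limma-trend fits 2 MLL and demethylase genes higher, limma-voom 5 posterior-zone genes lower, and no filter on low counts 6 retinoic acid genes higher; the cause was not tested. Leaving out 1 library gave 22 to 29 Hox genes lower and 1 higher, a median of -4.39 to -3.77, and 6039 to 8042 genes called in all. Across the same fits cofactors higher ranged from 0 to 2, CTCF and cohesin genes from 4 to 7 lower and 0 to 1 higher, MLL and demethylase genes from 2 to 4 lower and 1 to 2 higher, and posterior-zone genes from 0 to 2 higher. Same-numbered lots of the 2 genotypes deviated together with correlations of 0.219, 0.0589 and 0.202, so the lot number is not taken to pair them, although each library correlated best with its own number; with the replicate block 23 Hox genes were lower and 1 higher, 8326 genes were called in all, and Hoxd13 lost its call (adjusted p = 0.0590). Depth limits the genes with few counts, for which only large differences were detectable.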
